A study of Saccharomyces cerevisiae with 12 samples.

Results

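The CLB2 cluster is the group of budding yeast genes whose RNA peaks between G2 and mitosis under the transcription factors Mcm1 and Fkh2. Its members were taken from a list of 36 gene names, and all 36 were among the 7033 features used and the 6097 tested. The cultures were Saccharomyces cerevisiae of the W303 background and mating type a with mutant alleles of ade2, his3, trp1, leu2 and can1. All 12 carried an auxin-inducible degron and FLAG tag on the chromosomal SCC2 gene (SCC2-AID*-6FLAG-HYG) and the plant F-box protein OsTIR1, driven by the ADH1 promoter at ura3-1, which marks degron-tagged proteins for destruction once auxin is present. The product of SCC2 loads cohesin, the ring that ties sister chromatids, onto chromosomes. The groups differ in a HIS3 plasmid of the pRS413 series: without an insert (empty_vector, called NULL in the labels), with MYC-tagged scc2 carrying R787G, with MYC-tagged scc2 carrying G1242V, or with MYC-tagged wild-type SCC2 (WT). Each group has 3 libraries, taken after 3 h in 1 mM auxin. The chromosomal protein is thus targeted for degradation in all groups, and WT denotes the strain with a wild-type plasmid copy, not an unmodified one. The labels give 3 libraries a group but speak of duplicate cultures for the empty vector, and do not say whether cultures came from separate transformants, so p-values measure the spread between these libraries, which may be technical.

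In mitosis the cyclin-dependent kinase Cdc28 is driven by B-type cyclins, among them Clb1 and Clb2. Mcm1 and the forkhead protein Fkh2 sit together on the promoters of the cluster throughout the cycle, and the coactivator Ndd1 joins them when Cdc28 with Clb2 is active. The cluster thus contains its own activator, and its other products build the spindle, drive mitotic exit through Cdc5, Cdc20 and the mitotic exit network, switch on the next wave of genes through Swi5, and assemble the ring and septum that divide mother and bud.

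The joint Mcm1 and Fkh2 site is the feature by which the cluster is usually defined, so the sites are shown first. A forkhead core (GTAAACA on either strand) within 12 bases of an Mcm1 pair (CC and GG separated by 6 bases, which reads the same on both strands) was found in the 1000 bases before the start codon of 11 of the 36 members (30.6%), against 1.2% of all 5996 coding genes with such a window. A forkhead core, in a joint site or not, was present in 55.6% of members and 17.8% of coding genes. An Mcm1 pair, in a joint site or not, was present in 100.0% and 77.1%. Because the members are listed as Fkh2 and Mcm1 targets, this is a description of them and no finding. The 11 sites are printed on the strand of the gene, 5′ to 3′, with RefSeq R64 coordinates; capitals mark the forkhead core (GTAAACA, or its reverse complement TGTTTAC) and the CC and GG of the Mcm1 pair.
CLB1, cyclin, chrVII:703008-703029, plus strand: TGTTTACaaccgCCcaaagaGG
CLB2, cyclin, chrXVI:770889-770913, plus strand: TGTTTACatattgagCCcgtttaGG
SWI5, transcription factor, chrIV:751037-751059, minus strand: CCtgtttaGGaaaaagGTAAACA
SPO12, mitotic exit, chrVIII:401192-401214, plus strand: CCtaatttGGaaatatGTAAACA
HOF1, cytokinesis, chrXIII:335082-335104, plus strand: CCtctttgGGcaagttGTAAACA
MYO1, cytokinesis, chrVIII:151478-151501, plus strand: CCcaaaagGGtaattgcGTAAACA
BUD4, bud site, chrX:598538-598560, plus strand: CCcgatttGGaaaaagGTAAACA
ALK1, haspin kinase, chrVII:454682-454704, plus strand: CCctttttGGtaaaacGTAAACA
SUR7, eisosome, chrXIII:170215-170237, plus strand: CCcaatcgGGaaaattGTAAACA
IRC8, bud tip, chrX:339532-339554, plus strand: CCtttttgGGaaataaGTAAACA
WSC4, wall stress sensor, chrVIII:48480-48503, plus strand: CCccttcgGGcagcaagTGTTTAC
In 9 of these the Mcm1 pair comes first, with a gap of 6 or 7 bases to the forkhead core. In CLB1 and CLB2 the order is turned round on the strand of the gene, with gaps of 5 and 8 bases. Read on the other strand, both have the Mcm1 pair followed by GTAAACA, the arrangement of most sites. Only in WSC4 is the pair followed by TGTTTAC, so that its forkhead core faces the other way relative to the pair. A match is a run of letters, and neither binding nor use of a site was measured here.

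The RNA of SCC2 was read first, because it checks the plasmid in each culture; reads from the tagged chromosomal copy and the plasmid copy are summed. It stood at 12.1 to 12.8 scaled TPM in empty_vector, 86.5 to 99.6 in R787G and 109 to 128 in WT, whereas the 3 libraries labelled G1242V held 51.2, 93.2 and 12.4. Scaled TPM is the deposited TPM, a share of all transcripts corrected for gene length, divided by a factor per library that sets most genes level. The third library labelled G1242V thus had the SCC2 level of empty_vector and goes against its label, and comparisons of this group are given with and without it. All 7 genes of the mating type a list were above 0 in every library, with sums of 655 to 798 TPM in empty_vector, 428 to 673 in R787G, 677 to 719 in G1242V and 491 to 613 in WT. The alpha list summed to no more than 56.1 TPM, and the meiotic list to no more than 97.3.

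In empty_vector the mitotic genes of the cluster were low. Of the 36 members, 17 fell against WT and none rose. The genes that fell include both main mitotic cyclins, the polo kinase, Swi5, all 4 cytokinesis genes and both genes of organelle inheritance. Across all features 1.51% were called lower and 1.13% higher (limma, Benjamini-Hochberg adjusted p under 0.05). The median log2 fold change of the 36 members was -0.38, against -0.0078 for all features tested, and 32 members were below 0. In 27 members every empty_vector library lay below every WT library, and in 1, SKN1, a gene of wall glucan synthesis, every one lay above; among all features these shares were 18.4% and 17.3%. In bulk RNA, fewer cells in G2 and mitosis and less of these RNAs per cell cannot be told apart.

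**Figure D1:**
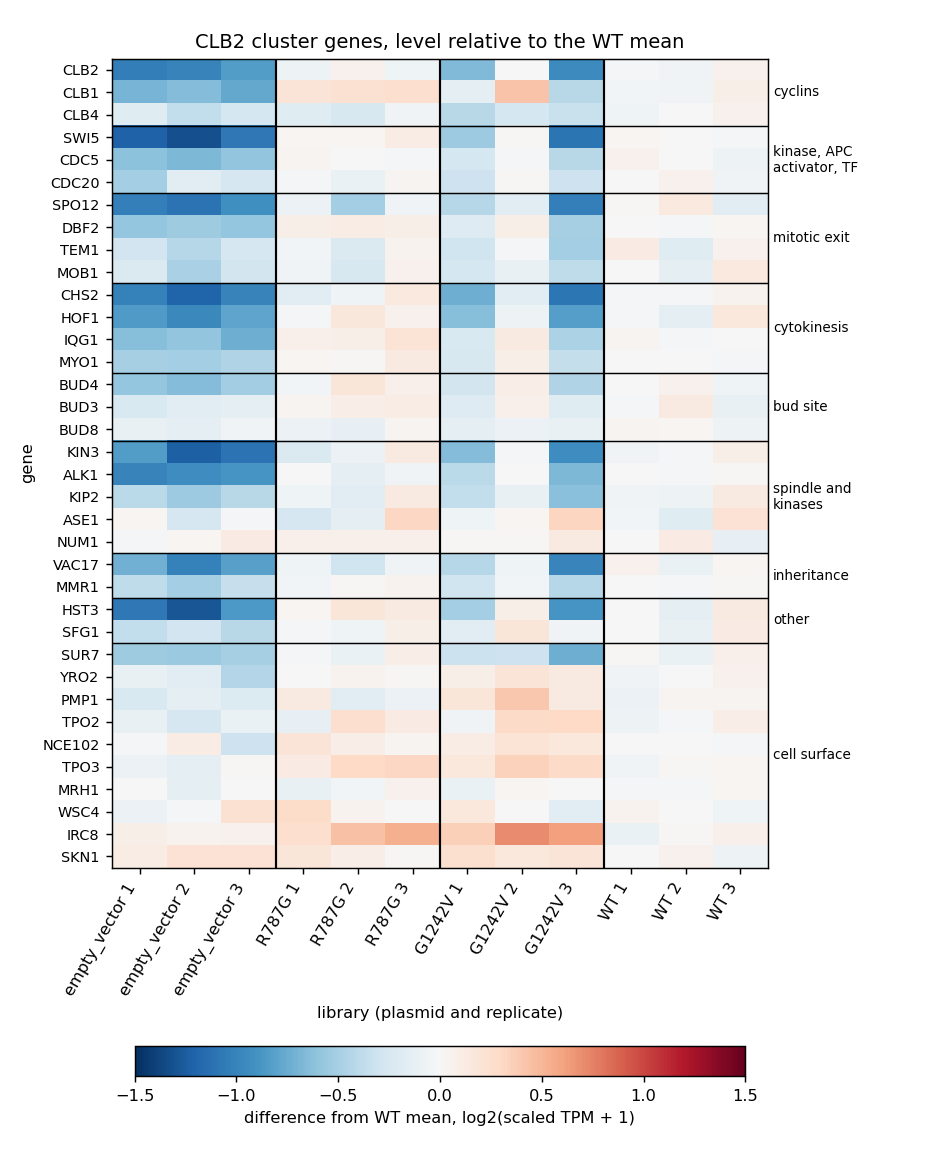
Heat map of the 36 CLB2 cluster genes (rows, grouped by role) in the 12 libraries (columns), coloured by the difference from the WT mean in log2(scaled TPM + 1). The 3 empty_vector columns and columns 1 and 3 of G1242V are blue over most rows outside the cell surface group, while R787G and G1242V column 2 are close to WT.

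Among the cyclins, CLB2 (YPR119W, chromosome XVI, 771653 to 773128) had 4.22, 4.34 and 4.99 scaled TPM in empty_vector, against 9.62, 9.37 and 10.2 in WT. The groups do not overlap, and the log2 fold change was -0.96 (SE 0.19, adjusted p = 0.0446). CLB1 (YGR108W, chromosome VII, 703636 to 705051), its close relative, had 3.84, 3.99 and 3.60 in empty_vector, against 6.67, 6.60 and 7.34 in WT (-0.71, SE 0.17, adjusted p = 0.0495). CLB4 (YLR210W, chromosome XII, 562008 to 563390), a B-type cyclin with a role from S phase on, had 7.44, 6.38 and 6.97 in empty_vector and 8.15, 8.58 and 8.98 in WT. Its groups did not overlap either, but the difference of -0.27 did not pass (adjusted p = 0.0857). CLB1 and CLB2 share no stretch of 50 bases, the read length, so reads of one would not be counted for the other.

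Of the regulators that act on these cyclins and their substrates, SWI5 (YDR146C, chromosome IV, 748613 to 750742) showed the lowest fold of all members. It had 12.9, 11.9 and 14.3 scaled TPM in empty_vector, against 31.8, 31.1 and 30.4 in WT, and fell by 1.20 (SE 0.20, adjusted p = 0.0440). The groups are far apart. CDC5 (YMR001C, chromosome XIII, 269019 to 271136), the polo kinase of mitosis and mitotic exit, had 14.0, 13.4 and 14.2 in empty_vector, against 23.0, 22.1 and 20.8 in WT (-0.63, SE 0.09, adjusted p = 0.0406). CDC20 (YGL116W, chromosome VII, 289809 to 291641), which activates the anaphase-promoting complex and so ends the life of securin and the cyclins, had 13.7, 17.9 and 16.7 in empty_vector and 20.0, 21.0 and 19.3 in WT. Its groups did not overlap, and its difference of -0.31 did not pass (adjusted p = 0.102).

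**Figure D2:**
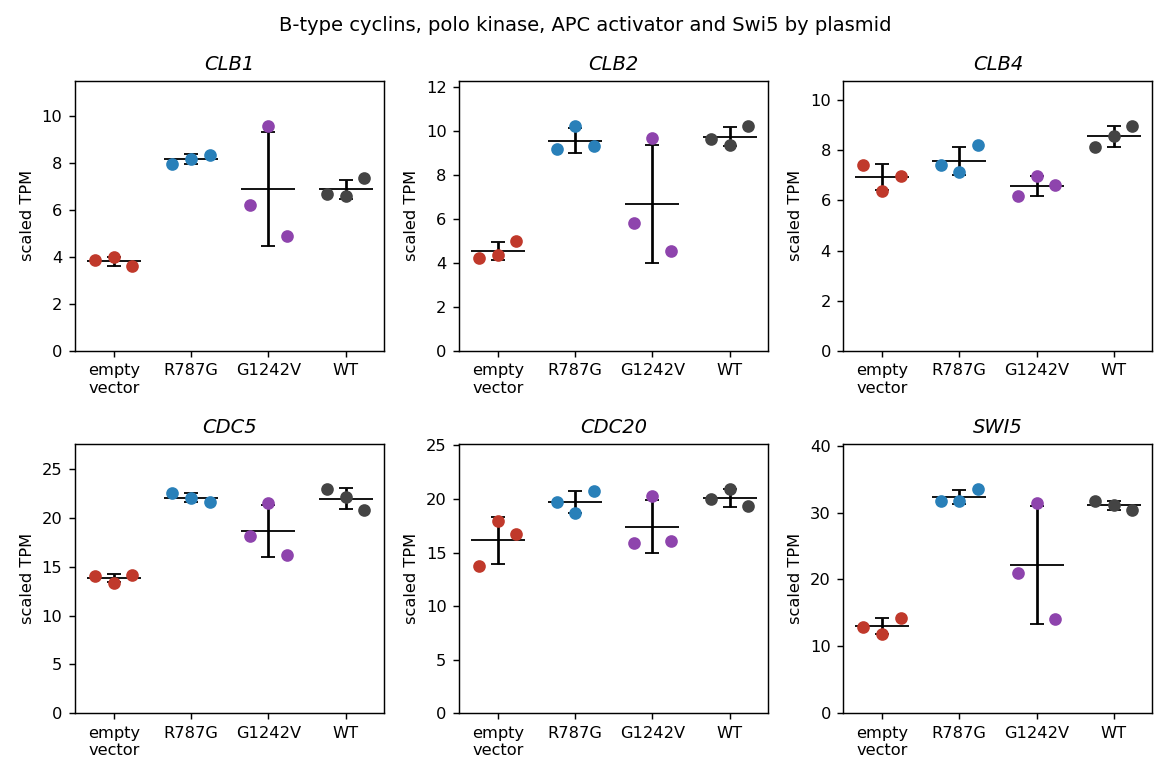
Scaled TPM (y axis, from 0) of 3 cyclins, CDC5, CDC20 and SWI5 in each plasmid group; points are libraries 1, 2 and 3 from left to right, and bars are mean ± SD (n = 3). CLB1, CLB2, CDC5 and SWI5 are lower in every empty_vector library than in every R787G and WT library, and CLB2, CDC5 and SWI5 spread widely over the G1242V libraries. CLB1 reaches 9.57 in the second G1242V library, above every R787G and WT library.

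In the mitotic exit group 2 of 4 members fell. SPO12 (YHR152W, chromosome VIII, 401434 to 401955), a nucleolar protein that promotes early release of the phosphatase Cdc14, had 18.9, 17.8 and 20.4 scaled TPM in empty_vector, against 40.1, 43.9 and 35.2 in WT (-1.02, SE 0.19, adjusted p = 0.0440). DBF2 (YGR092W, chromosome VII, 668189 to 669907), the kinase at the end of the mitotic exit network, had 27.2, 28.03 and 27.1 in empty_vector, against 40.9, 40.0 and 41.8 in WT (-0.56, SE 0.11, adjusted p = 0.0451). Neither pair of groups came near to overlapping. MOB1, the partner of Dbf2, and TEM1, the GTPase at the top of the network, were at -0.32 each and did not pass (adjusted p = 0.0939 and 0.123).

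All 4 members of the cytokinesis and septum group fell. CHS2 (YBR038W, chromosome II, 311898 to 314789), the chitin synthase that lays down the primary septum, had 8.26, 7.17 and 8.33 scaled TPM in empty_vector, against 17.3, 17.5 and 18.4 in WT (-1.07, SE 0.18, adjusted p = 0.0440). HOF1 (YMR032W, chromosome XIII, 335298 to 337307), an F-BAR protein of the bud neck, had 3.72, 3.37 and 3.92 in empty_vector, against 7.42, 6.72 and 8.51 in WT (-0.87). The product of HOF1 links closure of the ring with growth of the septum. IQG1 (YPL242C, chromosome XVI, 90622 to 95109), the IQGAP that brings actin to the ring, had 18.9, 19.4 and 17.6 in empty_vector, against 30.6, 29.2 and 29.8 in WT (-0.65). MYO1 (YHR023W, chromosome VIII, 151666 to 157452), the type II myosin of the ring, had 19.1, 19.0 and 19.8 in empty_vector, against 27.6, 27.5 and 27.1 in WT (-0.48). In all 4 genes the empty_vector libraries lay below the WT libraries.

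Among the spindle genes and kinases, KIN3 and ALK1 fell and the others did not pass. KIN3 (YAR018C, chromosome I, 170396 to 171703), a kinase of the NIMA family, had 9.76, 7.23 and 7.92 scaled TPM in empty_vector, against 17.6, 17.9 and 19.4 in WT (-1.06, SE 0.19, adjusted p = 0.0440). ALK1 (YGL021W, chromosome VII, 454785 to 457067), a haspin-like kinase, had 10.6, 11.2 and 11.6 in empty_vector, against 22.3, 22.0 and 22.4 in WT (-0.94, SE 0.13, adjusted p = 0.0406). Its relative outside the cluster, ALK2, fell as well (-0.65, SE 0.11, adjusted p = 0.0440). KIP2, a kinesin that carries cargo to microtubule plus ends, was at -0.45 (adjusted p = 0.0667) with no overlap between the groups. ASE1, which bundles microtubules of the spindle midzone, and NUM1, the cortical anchor of dynein, were at -0.09 and 0.04, and their groups overlapped.

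Both organelle inheritance genes fell, as did 1 of 3 bud site genes. VAC17 (YCL063W, chromosome III, 17290 to 18561), which ties the vacuole to the myosin Myo2 for transport into the bud, had 6.34, 5.03 and 5.91 scaled TPM in empty_vector, against 11.7, 10.4 and 11.4 in WT (-0.85, SE 0.19, adjusted p = 0.0491). MMR1 (YLR190W, chromosome XII, 535214 to 536689), which does the same for mitochondria, had 45.5, 41.5 and 46.5 in empty_vector, against 59.2, 58.7 and 60.3 in WT (-0.41, SE 0.09, adjusted p = 0.0491). BUD4 (YJR092W, chromosome X, 598735 to 603078), a neck protein that marks the axial bud site, had 7.93, 7.49 and 8.30 in empty_vector, against 12.4, 12.9 and 11.8 in WT (-0.59, SE 0.12, adjusted p = 0.0491). The 3 genes had no overlap between the groups. BUD3, the partner of Bud4 at the neck, was at -0.18 and BUD8, a landmark of the distal pole, at -0.10; neither passed.

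HST3 and SFG1 stand outside these roles. HST3 (YOR025W, chromosome XV, 378219 to 379562), a sirtuin that removes acetyl groups from new histone H3, had 9.13, 7.79 and 10.7 scaled TPM in empty_vector, against 20.5, 18.3 and 22.4 in WT (-1.07, SE 0.20, adjusted p = 0.0440), with no overlap. SFG1, a putative transcription factor of pseudohyphal growth, was at -0.36 and did not pass (adjusted p = 0.0668).

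In the group of 10 cell surface genes only SUR7 fell. SUR7 (YML052W, chromosome XIII, 170402 to 171310), a protein of the eisosome, the furrow in the yeast plasma membrane, had 55.2, 54.2 and 56.4 scaled TPM in empty_vector, against 81.0, 74.8 and 84.5 in WT (-0.53, SE 0.10, adjusted p = 0.0452). The other 9 did not pass. They comprise NCE102, an eisosome organiser (-0.07), PMP1, a small regulator of the proton pump (-0.19), the polyamine exporters TPO2 and TPO3 (-0.15 and -0.07), the membrane proteins MRH1 and YRO2 (-0.05 and -0.23), the wall sensor WSC4 (0.04), SKN1 (0.18) and IRC8, a bud tip protein (0.07). TPO2 and TPO3 are 88.1% identical in coding sequence and share 742 of their 50-base windows, so reads from one could be counted for the other and their separate values are uncertain. In NUM1 20.7% of windows occur more than once, and in the remaining 33 members none does.

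By level, the calls lay among the more weakly expressed members. Of the 6 with a mean under 10 scaled TPM over all libraries, 4 fell, with a median log2 fold change of -0.78. Of the 19 between 10 and 50, 11 fell (median -0.56), and of the 4 between 50 and 100, 2 fell (median -0.18). None of the 7 members at 100 or more fell (ASE1, NCE102, PMP1, TPO2, TPO3, MRH1 and YRO2, median -0.09). Levels and roles go together here, since 6 of those 7 are cell surface genes, so level and role cannot be told apart.

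Calls were also set beside the printed sites. Of the 11 members with a joint site, 9 fell (median -0.71); IRC8 and WSC4 did not. Of the 25 without one, 8 fell (median -0.31). Of these 25, 9 have a forkhead core but no joint site, and 4 of them fell (DBF2, IQG1, MMR1 and VAC17). The other 16 lack the core in this window, and 4 of them fell (CDC5, CHS2, HST3 and KIN3). No test was made of this split, which was chosen after the values were known. It also depends on the window: CLB1 and CLB2, which both fell, have a joint site within 1000 bases but none within 600.

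**Figure D3:**
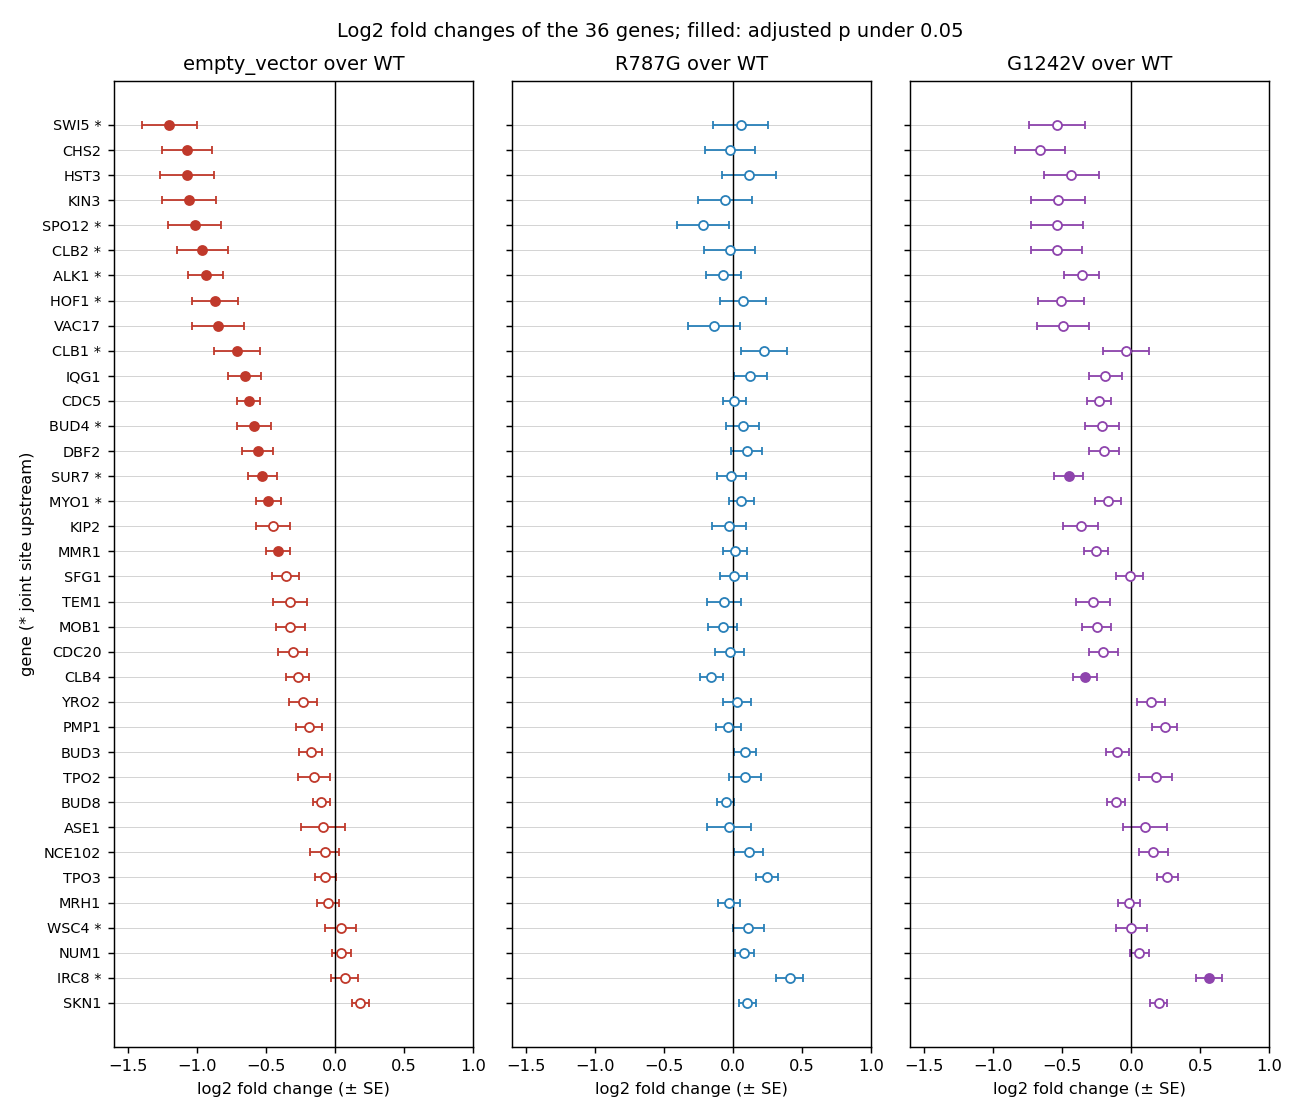
Log2 fold change (x axis, ± SE from limma) of each of the 36 genes (y axis, ordered by the left panel) in empty_vector, R787G and G1242V over WT; filled points passed the adjusted p threshold and an asterisk marks a joint site upstream. The left panel reaches -1.20 with 17 filled points, the middle panel has none, and the right panel has 3.

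The 17 calls passed narrowly, with adjusted p between 0.0406 and 0.0495, and they need all the libraries: leaving out any one of the 3 empty_vector or 3 WT libraries left 0 to 2 of them, although the median stayed between -0.42 and -0.36. All 17 calls were also lost with no filter on low values (smallest adjusted p of a member 0.0698) and with no variance trend (0.0510). They were lost as well with the replicate number added to the fit as a block (0.0634). In each of these fits 25 members had an unadjusted p under 0.05. A fit without the libraries labelled G1242V, whose spread enters the shared error, called 18 (the 17 and KIP2), with SWI5 at an adjusted p of 8.43e-05; over all alternatives the adjusted p of SWI5 ran to 0.152.

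Genes around the cluster were then read from lists of the same pathway. Of 18 tested upstream regulators, none was called in empty_vector against WT by limma, and 7 had an unadjusted p under 0.05 (median -0.12), where 1747 of the 6097 features did. The activators themselves did not pass. FKH2 had 35.3, 35.8 and 40.8 scaled TPM in empty_vector, against 35.3, 37.9 and 31.3 in WT (0.10). NDD1 had 23.1, 26.2 and 28.6 in empty_vector, against 26.0, 27.1 and 21.0 in WT (0.07). Both genes overlap between the groups. MCM1, which also serves genes of other phases, had 147, 142 and 174 in empty_vector, against 124, 132 and 120 in WT, a difference of 0.29 that did not pass (adjusted p = 0.0668).

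Of 18 listed genes that act as cells leave mitosis for G1, the step after the cluster, 3 fell in empty_vector (median -0.59) and 17 were below 0. They were DSE1 and SCW11, genes of daughter cell separation (-1.36 and -1.23), and SUN4, a septation gene (-0.996). Of 14 further mitotic exit genes, 2 fell, among them BNS1, the relative of SPO12 (-0.62), and the other 12 did not pass. Of 15 cytokinesis genes outside the cluster, among them the septins, none was called, and 5 had an unadjusted p under 0.05 (median -0.09), a share near that of all features.

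Signs of RNA composition moved with the plasmid as well. Ribosomal RNA, which the library kit removes, took 0.103% to 0.159% of TPM in empty_vector, 0.0984% to 0.146% in R787G, 0.0347% to 0.125% in G1242V and 0.338% to 0.536% in WT. SCR1, an abundant noncoding RNA of protein targeting, made up 7.07% to 12.1% of TPM in empty_vector, 12.1% to 15.5% in R787G, 10.6% to 11.8% in G1242V and 12.5% to 14.4% in WT. Of the 9 meiotic markers, REC8 and ZIP1 were called higher in empty_vector (0.33 and 0.51) and DMC1 lower (-0.55); their part in the cluster's values was not tested.

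The comparison of R787G with WT sets the 2 plasmid copies side by side where the chromosomal protein is targeted for degradation. No Scc2 protein was measured here. SCC2 RNA was lower in every R787G library than in every WT library, so substitution and SCC2 level cannot be told apart. No member was called in R787G by limma, 2 (IRC8 and TPO3) had an unadjusted p under 0.05, and 0.0% of all features were called. The median was 0.01, with 16 members below 0 and 20 above. SWI5 had 31.7, 31.7 and 33.6 scaled TPM in R787G, against 31.8, 31.1 and 30.4 in WT. CLB2 had 9.15, 10.2 and 9.29 in R787G, against 9.62, 9.37 and 10.2 in WT, and both genes overlap between the groups.

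The 95% intervals show how large a difference could have been missed. For SWI5 the interval of the log2 difference was -0.39 to 0.50, for CLB2 -0.43 to 0.38, for CDC5 -0.18 to 0.19 and for CHS2 -0.42 to 0.37. Over all 36 members the bounds reached -0.64, in SPO12, and 0.62, in IRC8. These intervals use the error shared by all 4 groups, which the libraries labelled G1242V widen. Without them the SE of this difference was 0.069 in SWI5 (0.20 with them), 0.087 in CLB2 (0.19) and 0.090 in CHS2 (0.18), and in a fit of R787G and WT alone with equal numbers paired it was 0.059, 0.088 and 0.071. SPO12 had 37.1, 27.5 and 38.0 in R787G, against 40.1, 43.9 and 35.2 in WT, and the second R787G library was the lowest of the 6. No member lay wholly below WT, and 7 lay wholly above it (CLB1, DBF2, IQG1, MYO1, NCE102, TPO3 and IRC8), against 5.77% and 7.35% of all features. CLB1 had 7.95, 8.18 and 8.35 in R787G, against 6.67, 6.60 and 7.34 in WT, a difference of 0.22 (adjusted p = 0.872). IRC8 had 17.5, 20.2 and 21.6 in R787G, against 13.6, 14.8 and 15.4 in WT, a difference of 0.41 (adjusted p = 0.372).

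Set against empty_vector, R787G had 15 members higher and none lower, where 1.74% of all features were called higher. The median was 0.39, against 0.0048 for all features. In 25 members every R787G library lay above every empty_vector library and in none below, against 12.5% and 11.3% of all features. This comparison shares its empty_vector libraries with the one above, so the 2 are not separate evidence. SWI5 was 1.25 higher in R787G (SE 0.20, adjusted p = 0.0247), HST3 1.19, CHS2 1.05, KIN3 1.00, CLB2 0.94, HOF1 0.94 and CLB1 0.93. The remaining 8 calls ran from 0.42 in MMR1 to 0.87 in ALK1.

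SPO12 and VAC17 did not pass against empty_vector, although no libraries overlapped: SPO12 was 0.80 higher (adjusted p = 0.0529) and VAC17 0.71 (adjusted p = 0.0741). VAC17 had 10.6, 8.85 and 10.7 scaled TPM in R787G, against 6.34, 5.03 and 5.91 in empty_vector. Without the libraries labelled G1242V both passed, which made 17, at adjusted p of 0.0109 and 0.00742. Leaving out R787G library 1 gave the 15 plus IRC8 and TPO3, and leaving out any other library of either group gave 0, as did fitting with no filter (smallest adjusted p of a member 0.0593). Of the 18 genes that act as cells leave mitosis for G1, 9 were higher in R787G than in empty_vector (median 0.94), among them DSE1 (1.88), SCW11 (1.70) and the endochitinase CTS1 (1.66), and AMN1, an inhibitor of mitotic exit in daughters, was 1.25 higher.

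Over the 36 members together, the libraries labelled G1242V did not form a group, with median differences of -0.25, 0.02 and -0.40 from the WT mean. In the 10 cell surface genes they stood close together, with medians of 0.14, 0.20 and 0.15. The medians of those genes were -0.09, -0.14 and -0.05 in empty_vector and 0.13, 0.08 and 0.05 in R787G. Against WT, 2 members were lower (CLB4 and SUR7) and 1 higher (IRC8), where 2.59% and 1.98% of all features were called lower and higher. The median was -0.20, and 6 members lay wholly below WT and 6 wholly above, shares close to the 19.6% and 20.8% of all features. Those shares are not even over the roles. The 6 above were all cell surface genes (NCE102, PMP1, IRC8, TPO3, YRO2 and SKN1). That group of 10 had a median of 0.17, and 1 of it, SUR7, lay wholly below WT. The split by role was not tested. Without the third library no member was called, 7 had an unadjusted p under 0.05, and the median was -0.10. Without the second library 18 were called, 17 lower and 1 higher, and the median was -0.33. In that fit 318 of all features were called, 207 of them lower.

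SWI5 shows the spread: it had 21.0, 31.5 and 14.0 scaled TPM in the libraries labelled G1242V. The third was within the empty_vector range of 11.9 to 14.3, the second within the WT range of 30.4 to 31.8, and the first between them. CLB2 had 5.80, 9.68 and 4.52 and CHS2 had 10.3, 15.7 and 7.86 in the same libraries. The order of the libraries was the same in all 3 genes, and it was the order of SCC2 RNA. With 3 libraries such an order can arise easily, and a link to SCC2 RNA was not tested. Over the 36 members, the second library was the highest of its group in 31 (86.1%, against 38.8% of all features) and the third the lowest in 22 (61.1%, against 34.3%). Members also moved together within the other groups. The second empty_vector library was the lowest of its group in 22 (61.1%, against 34.9%). The third R787G library was the highest in 22 (61.1%, against 37.1%) and the third WT library in 20 (55.6%, against 38.3%).

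**Figure D4:**
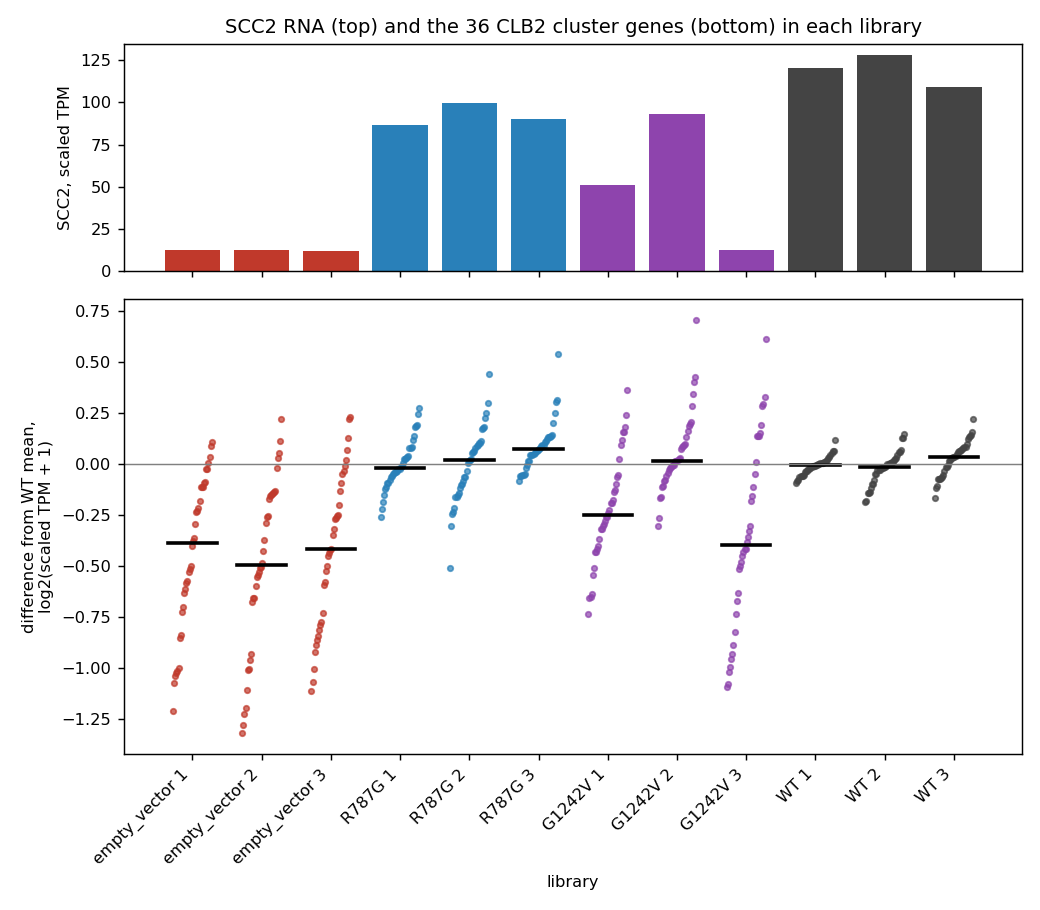
SCC2 RNA in scaled TPM (top, bars from 0) and the difference of each of the 36 genes from its WT mean in log2(scaled TPM + 1) (bottom, points sorted within a library, black line the median), by library. The medians are -0.39, -0.50 and -0.42 in empty_vector, -0.02, 0.02 and 0.07 in R787G, and -0.25, 0.02 and -0.40 in G1242V.

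The 27 members that lay wholly below WT in empty_vector were also read library by library, beside all 1124 features chosen the same way. In the second library labelled G1242V, 22 of the 27 (81.5%) were at or above the lowest WT value, against 48.2% of those features. In the third, 16 (59.3%) were at or below the highest empty_vector value, which is no more than the 65.6% of those features. In the first, 19 of 27 lay between the ranges, against 249 of the 1124. The R787G libraries had 21, 15 and 25 of the 27 at or above the lowest WT value (77.8%, 55.6% and 92.6%), against 36.5%, 56.6% and 72.7% of those features, so the second R787G library stood at the background. These counts describe single libraries and carry no test.

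The 3 members called in G1242V against WT were CLB4, SUR7 and IRC8. CLB4 had 6.17, 6.96 and 6.61 scaled TPM in G1242V, against 8.15, 8.58 and 8.98 in WT (-0.34, SE 0.09, adjusted p = 0.0494), and it was low in the second library too. SUR7 had 64.0, 64.6 and 47.6 in G1242V, against 81.0, 74.8 and 84.5 in WT (-0.45, SE 0.10, adjusted p = 0.0375). SUR7 was also among the 17 genes that fell in empty_vector, and among the G1242V libraries the second was the highest and the third the lowest, as in SWI5. IRC8 had 19.0, 24.4 and 22.9 in G1242V, against 13.6, 14.8 and 15.4 in WT (0.56, SE 0.10, adjusted p = 0.0157). IRC8 was above WT in all 3 libraries labelled G1242V and in all 3 of R787G, while its 15.6, 15.2 and 15.3 in empty_vector overlapped WT. Whether CLB4 and SUR7 differ between mutants was not tested. CLB4 and SUR7 lost their calls on TPM as deposited. CLB4 lost its call without any 1 of the 6 libraries and SUR7 without any except the second G1242V library, and IRC8 lost its call without the third G1242V library (adjusted p = 0.0977) or the first WT library (0.0894).

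Against empty_vector, no member was called in G1242V by limma, 20 had an unadjusted p under 0.05, and 0.082% of all features were called higher. The median was 0.34, 14 members lay wholly above empty_vector and none wholly below, against 14.4% and 11.7% of all features. With the second library alone, the median of the members was 0.49, against 0.012 for all features. This value rests on 1 library, the one that was highest of its group in most members. Leaving out the third library gave 6 calls, where 25 of the 6097 features were called. Leaving out the first gave 1, where 30 features were called. Leaving out the second gave no call, 14 members with an unadjusted p under 0.05 and a median of 0.20.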

How the data were processed

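Per the labels' protocols, ribosomal RNA was removed from total RNA before stranded library preparation, and single reads of 50 bp were taken. The authors deposited gene-level TPM values; per the submitters' processing notes, the tools were bcl2fastq 2.17, STAR, RSEM and edgeR with build sacCer3, without stated roles. Read depth is unknown, so no counting interval is given. Of 7036 features, 3 rows shifted by a comma and 1 unnamed column were left out. Each library's TPM was divided by its median-of-ratios factor (0.904 to 1.19, over 5421 features averaging at least 10 TPM and never at 0). The 6097 features that averaged at least 1 TPM were fitted on log2(scaled TPM + 1) with limma 3.58.1 (R 4.3.3, variance trend, all 12 libraries, group as the only term, 8 residual and 3.20 prior degrees of freedom). Log2 fold changes on this scale understate the change of low genes. P-values are two-sided, adjusted by Benjamini-Hochberg over all features per comparison, and called at an adjusted p under 0.05; an exact permutation test of 3 against 3 cannot go below 0.1. The fit was tested on simulated data.

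The members and all gene lists were chosen with earlier results of these data known. Values per library are given for members called in any comparison and for 6 fixed regulators. Only between R787G and WT did the deviations of all 3 equal numbers correlate above 0.1 (0.199, 0.146 and 0.468). Of all 18 pairs 8 exceeded 0.1. Single pairs elsewhere were higher than some of these, such as 0.303 for library 2 of empty_vector and of WT. Whether cultures were paired is thus not known. Coordinates, windows and sequences are RefSeq R64 (matched by locus tag for all 36 members on 12 chromosomes), searched with Python 3.11.15 and Biopython 1.88. The window of 1000 bases was chosen after counts at 600 and 300 were seen. No member overlaps another annotated gene. Values of 1 gene of the lists are not reported here.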

Additional observations from a re-analysis of the deposited data

How the results depend on the processing

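Of the 35 called member values, none changed sign in 525 recalculations; 248 kept their call and 277 lost it. In empty_vector against WT, the 17 calls became 12 on TPM as deposited (median -0.29), 16 with quantile normalization, 16 with a pseudocount of 5 (median -0.33), 17 with a pseudocount of 0.1, 18 with only the 2 groups or without G1242V, and 0 with no filter, no variance trend or the replicate block (25 with an unadjusted p under 0.05 each time); leaving out a replicate gave 0 to 2. In R787G against empty_vector, the 15 became 12 on TPM as deposited (median 0.24), 0 with no filter, 11 with the replicate block and 0 to 17 without a replicate (median 0.33 to 0.43; 0.32 with a pseudocount of 5). In G1242V against WT, the 3 became 1 on TPM as deposited, 1 with the replicate block, 0 with library 2 alone (median 0.016) and 0 to 18 without a replicate. In G1242V against empty_vector, the 0 became 1 with the replicate block (IRC8) and 0 to 6 without a replicate. With library 2 alone the median was 0.49. In R787G against WT the count was 0 in every setting run, also with the block fitted on only the 2 groups, an alternative added after seeing the data; the median on TPM as deposited was -0.047. TPM as deposited moved the median of all features to -0.15 in R787G against empty_vector, -0.11 in G1242V against empty_vector and 0.09 in empty_vector against WT, and it moved the share of lower calls: 52 of 206 features in empty_vector against WT (92 of 161 with scaling), 219 of 288 in R787G against empty_vector (38 of 144) and 18 of 57 in G1242V against WT (158 of 279). The causes were not tested. Beyond R787G and WT, equal numbers did not pair the libraries, and 6 of the 12 correlated best with their own number. With joint sites sought in 600 or 300 bases, 25.0% and 22.2% of members had one (0.8% and 0.417% of coding genes), and with the shorter core TAAACA 36.1% (3.17%). Read depth is unknown, which limits what can be said of the lowest members.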
